A study of Mus musculus with 32 samples.

Results

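The genes described here encode the ligands and receptors of the classical axon guidance systems, which are the semaphorins with their plexin and neuropilin receptors, the ephrins with the Eph receptors, the Slits with the Robo receptors, and the netrins with Dcc. Members were chosen by a rule on gene symbols, and 65 of the 24028 symbols in the expression tables met the rule. RNA levels were compared between WT and Eed-/- mouse embryonic stem cells (mESCs), which were grown on gelatin in medium with serum and leukemia inhibiting factor (LIF). There was 1 RNA-seq library for each genotype among the 32 samples of the series. EED is a core subunit of Polycomb repressive complex 2, the enzyme complex that methylates lysine 27 of histone H3, and the series asked how Polycomb acts at DNA methylation valleys (DMVs), which are long stretches of DNA with little methylation. Both RNA-seq libraries carry the strain label TT2, while Eed-/- mESCs of other assays in the series carry another strain label, and the RNA-seq labels do not name the Eed allele.

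With 1 library per genotype no difference could be tested, and every value below compares these libraries rather than the genotypes. The Eed transcript was listed at 63.0 FPKM (fragments of a transcript scaled to its length and to the mapped fragments of the library) in WT and at 70.9 FPKM in the other library, a change of 0.40. The transcript level thus gives no check of the label, so that library is named by its label, as the library labelled Eed-/-. The study checked the loss of Eed in its Eed-/- mESCs through H3K27me3, by western blot and ChIP-seq, and not from this RNA. Changes are differences in log2(FPKM + 1) after quantile normalization of the 2 libraries, a scale that understates the change of low genes. A gene entered the comparison where its normalized FPKM averaged 0.1 or more, which 14835 symbols and 52 of the 65 members met, and a change of at least 2-fold on this scale is given as past the threshold. The sequencing depth recovered from the steps between low FPKM values was about 7200000 fragments for the WT library and 6400000 for the other. Fold values are ratios of normalized FPKM with an exact 95% interval from the recovered fragment numbers, and these intervals cover counting error only, not the spread between cultures. The fragment numbers take the longest protein-coding transcript of each gene, and a shorter length gives fewer fragments and a wider interval. Lengths lie far apart in some genes, such as Plxnb1 at 8596 and 585 bases, Efnb2 at 4324 and 652, and Sema4a at 3205 and 385. Where a pair of values is given for a gene, WT comes first, FPKM values are as deposited, and ratios are the library labelled Eed-/- over WT.

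These proteins steer growing axons by attracting or repelling the growth cone. Semaphorins bind plexins, with a neuropilin as the ligand-binding partner for most secreted class 3 semaphorins. Ephrins are themselves membrane-bound, so Eph receptors signal on contact between cells, whereas Slits, netrins and class 3 semaphorins are secreted and act at a distance. Outside the nervous system the same genes act in blood vessel growth, epithelial sorting and the early embryo, and several are known to be expressed in undifferentiated mESCs.

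Of the 52 members compared, 4 differed past the threshold, 1 higher in the library labelled Eed-/- (3.8% of all genes were) and 3 lower (3.98% were). The number depends on the pseudocount of 1: with 0.1 it was 9 higher and 5 lower, beside 11.4% and 12% of all genes, and with 0.01 it was 11 and 6, beside 12.9% and 13.4%. With either value the 4 members stayed past the threshold and most of those added were higher. The windows of 250 bases upstream of their transcription starts are shown here because these genes are the ones past the threshold and differ widely in CpG number. The windows are from RefSeq on GRCm38.p6, while gene positions further on are in mm9. They span chr5:14025026-14025275 on the plus strand for Sema3e, chr1:62703067-62703316 on the plus strand for Nrp2, chr3:89280952-89281201 on the minus strand for the more upstream start of Efna1, and chr9:57939862-57940111 on the plus strand for Sema7a. Each is written 5′ to 3′ along the gene, with every CpG in capitals.
Sema3e: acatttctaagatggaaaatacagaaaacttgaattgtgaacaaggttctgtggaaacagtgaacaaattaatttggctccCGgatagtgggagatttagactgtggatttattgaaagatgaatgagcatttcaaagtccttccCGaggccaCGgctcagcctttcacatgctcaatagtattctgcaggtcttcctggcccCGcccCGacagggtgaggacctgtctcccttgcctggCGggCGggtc
Nrp2: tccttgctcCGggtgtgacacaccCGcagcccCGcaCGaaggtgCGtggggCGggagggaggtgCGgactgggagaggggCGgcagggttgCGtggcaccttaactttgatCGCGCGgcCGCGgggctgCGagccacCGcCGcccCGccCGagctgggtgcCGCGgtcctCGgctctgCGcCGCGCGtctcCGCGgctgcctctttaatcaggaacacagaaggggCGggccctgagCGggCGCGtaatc
Efna1: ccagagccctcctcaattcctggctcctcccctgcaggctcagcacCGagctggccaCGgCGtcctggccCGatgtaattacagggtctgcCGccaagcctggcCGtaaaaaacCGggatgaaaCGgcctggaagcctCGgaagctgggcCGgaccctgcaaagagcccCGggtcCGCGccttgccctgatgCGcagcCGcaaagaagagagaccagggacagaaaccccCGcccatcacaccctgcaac
Sema7a: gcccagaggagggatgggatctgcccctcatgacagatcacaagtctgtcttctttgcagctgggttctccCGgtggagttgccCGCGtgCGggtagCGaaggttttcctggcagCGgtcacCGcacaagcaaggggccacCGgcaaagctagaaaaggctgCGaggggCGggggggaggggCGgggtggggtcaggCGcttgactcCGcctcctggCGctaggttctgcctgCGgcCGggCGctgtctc
The Nrp2 window holds 32 CpGs, Sema7a 17, Efna1 16 and Sema3e 7. Over all 32851 RefSeq windows of this length the median was 6 CpGs (interquartile range 2 to 16), so the Nrp2 window lies above this range, Sema7a just above it, and Sema3e and this Efna1 window within it, while a second Efna1 window, at chr3:89279646-89279895, holds 18 CpGs and lies above it.

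Beside the 4 members past the threshold, counted by any amount, 26 members were higher and 26 lower, where 50.9% and 49% of all genes were. Their median change was 0.00 and ranged from -1.92 to 1.47, beside a median of 0.01 over all genes. Over the 27 members with a mean of at least 1 FPKM the median was -0.22, where the 10819 genes at that level had 0.01. With a pseudocount of 1 the shares of the members are near those of all genes in both directions, so they are no result about axon guidance genes as a list, and what follows describes single genes and families. In bulk RNA, fewer cells of a type and less RNA per cell cannot be told apart.

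**Figure D1:**
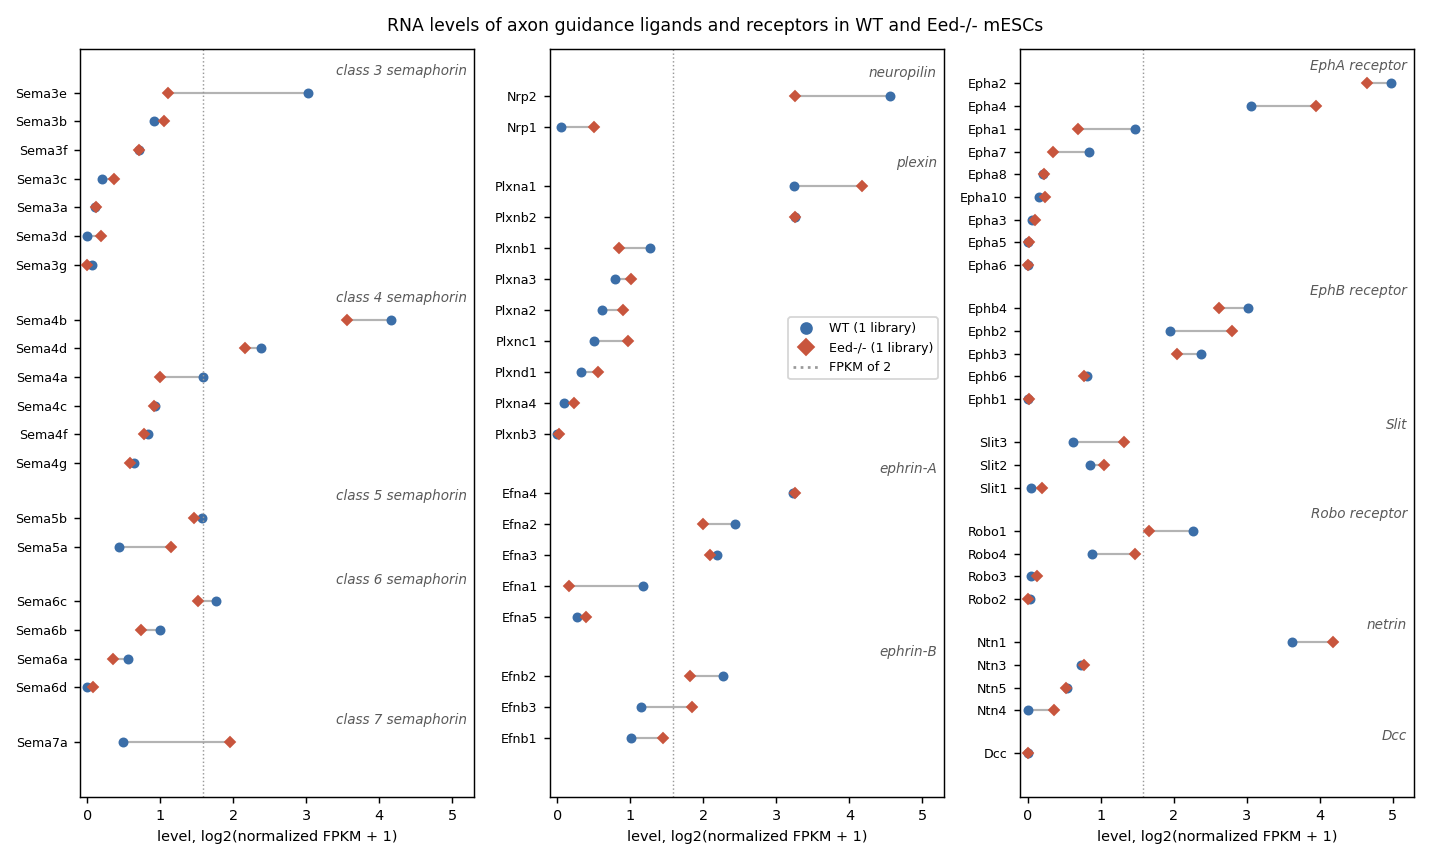
Level of each of the 65 members as log2(normalized FPKM + 1), by family, with circles for the WT library and diamonds for the library labelled Eed-/-. The dotted line marks an FPKM of 2, and a reader should see that most genes lie left of it in both libraries, with Sema3e and Nrp2 showing the widest gaps toward lower levels and Sema7a toward higher ones.

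At a normalized FPKM of 2, the bound taken here for an expressed gene, 19 members were expressed in WT and 18 in its counterpart labelled Eed-/-, 16 of them in both, and 44 stayed under 2 in both. Over all symbols 38.7% were expressed in each library and 36.2% in both. Sema7a and Efnb3 were above 2 only in the library labelled Eed-/-, and Sema3e, Sema4a and Sema6c only in WT. Sema7a and Sema3e also differed past the threshold, beside 1.02% of all symbols that did so upward across 2 and 0.986% that did so downward. Dcc and Epha6 were listed at 0 in both libraries, as were 30% of all symbols. Epha5, Ephb1, Plxnb3, Sema3d, Sema6d and Ntn4 were listed at 0 in WT alone, and Robo2 and Sema3g in the library labelled Eed-/- alone, with at most 6 fragments in the other library in each of these genes.

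Among the ligands, the class 3 semaphorins are secreted repellents. Sema3e, which binds plexin-D1 without a neuropilin, spans chr5:14025276-14256689 (mm9, plus strand). It was listed at 7.57 FPKM in WT and 1.14 FPKM in the library labelled Eed-/-, about 362 against 48 fragments. The change was -1.92, the lowest of all members, and the ratio 0.161 (interval 0.116 to 0.216), a level 6.22-fold higher in WT. Gm4128, a noncoding transcript on the opposite strand, overlaps this gene, and reads of such pairs cannot be told apart where the strand setting of the counting is not known.

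Sema3e supplied 80.8% of the summed FPKM of the 7 class 3 genes in WT and 33.9% in its counterpart labelled Eed-/-, and that sum went from 9.37 to 3.35 FPKM. The other class 3 genes stayed low in both libraries. Sema3b was listed at 0.902 and 1.06 FPKM, and Sema3f, a ligand of neuropilin-2, at 0.646 and 0.627 FPKM. Sema3c and Sema3a were under 0.3 FPKM in both. Sema3d was listed at 0 in WT and at 0.147 FPKM, 6 fragments, in the library labelled Eed-/-, and Sema3g at 0.0395 FPKM, 1 fragment, and 0. Of the 4 class 3 genes compared, 3 were higher and only Sema3e was lower, beside 50.9% and 49% of all genes. Sema3f was also lower in the FPKM as deposited.

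The class 4 semaphorins, which are single-pass membrane proteins, all had 1 direction: 6 of 6 were lower, as 49% of all genes were. With a pseudocount of 1 none was past the threshold and the median was -0.14, although Sema4c was higher under median-ratio scaling. Sema4b, on chromosome 7, was listed at 17.9 and 10.2 FPKM, about 469 and 238 fragments, a change of -0.60 and a ratio of 0.639 (0.543 to 0.746). It supplied 67.1% of the class sum in WT and 61.7% in its counterpart labelled Eed-/-. Sema4a was listed at 2.08 and 0.973 FPKM with a ratio of 0.497 (0.278 to 0.879). For Sema4d, the ligand of plexin-B1, at 4.41 and 3.35 FPKM, and for Sema4c, Sema4f and Sema4g, at 0.489 to 0.916 FPKM over both libraries, the interval of the ratio held 1.

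The class 6 semaphorins, transmembrane ligands of A-type plexins, were lower in all 3 genes compared, as 49% of all genes were. Sema6c was listed at 2.46 and 1.78 FPKM, Sema6b at 1.01 and 0.654 FPKM, and Sema6a at 0.475 and 0.277 FPKM. The intervals of all 3 ratios held 1. Sema6d had 2 fragments, in the library labelled Eed-/-. The class 5 genes, which carry thrombospondin repeats, differed from each other: Sema5a was listed at 0.352 and 1.18 FPKM, a ratio of 3.44 (2.19 to 5.50), while Sema5b, at 2.03 and 1.70 FPKM, had a ratio of 0.896 (0.612 to 1.33).

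Sema7a, the semaphorin that is anchored to the membrane by a lipid and binds plexin-C1 and integrins, was with a pseudocount of 1 the only member past the threshold and higher. It spans chr9:57787920-57810671 (mm9, plus strand) and has 1 annotated transcript. Its level was 0.402 FPKM in WT and 2.75 FPKM in the library labelled Eed-/-, about 9 against 55 fragments. The change was 1.47 and the ratio 7.21 (3.55 to 16.7). Plxnc1, the gene of its plexin receptor, was listed at 0.424 and 0.926 FPKM, a ratio of 2.25 (1.31 to 4.03), with a change of 0.45 that is short of the threshold.

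On the receptor side, the neuropilins are co-receptors without an enzymatic domain, and nearly all neuropilin RNA was Nrp2, whose protein also binds vascular endothelial growth factors. Nrp2 spans chr1:62749859-62865269 (mm9, plus strand). It was listed at 23.9 FPKM in WT and 8.12 FPKM in the library labelled Eed-/-, about 1127 against 340 fragments. The change was -1.29 and the ratio 0.381 (0.337 to 0.431), a level 2.62-fold higher in WT. With a pseudocount of 1 Nrp2 was the only receptor past the threshold, and it had the most fragments of the 4 genes past it. With 0.1 the receptors Ephb2, Nrp1, Plxna1 and Plxnc1 were past it too and higher, and Epha1 and Epha7 lower. At that setting 11.4% and 12% of all genes were past it.

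Nrp1, the partner of Sema3a, was barely present in WT at 0.0241 FPKM, 1 fragment, and was listed at 0.405 FPKM, about 15 fragments, in the library labelled Eed-/-. The ratio of 13 had an interval of 2.01 to 551, and the change on the log2(FPKM + 1) scale was 0.45. Nrp2 supplied 99.9% of the neuropilin sum in WT and 95.2% in its counterpart labelled Eed-/-.

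Plexins are the signalling receptors of the semaphorins and act on small GTPases through their cytoplasmic part. Of the 8 plexins compared, 6 were higher and 2 lower in the library labelled Eed-/-, beside 50.9% and 49% of all genes. With a pseudocount of 1 none was past the threshold and the median was 0.23, although Plxnb2 turned higher under median-ratio scaling. Plxna1, the partner of neuropilins in class 3 signalling, was closest to the threshold. It was listed at 8.88 and 16.1 FPKM, about 566 and 911 fragments, a change of 0.94 and a ratio of 2.02 (1.82 to 2.25). A lincRNA on the opposite strand, Gm16896, overlaps it. Plxnb2 was nearly equal in the 2 libraries after normalization, with 9.03 and 8.12 FPKM as deposited, a change of 0.00 and a ratio of 0.998 (0.859 to 1.15). Together these genes supplied most plexin RNA: Plxna1 went from 41.6% to 56.7% of the plexin sum, and Plxnb2 from 42.3% to 28.6%.

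The remaining plexins were under 1.5 FPKM in both libraries. Plxnb1, the receptor of Sema4d, was listed at 1.42 and 0.773 FPKM, a ratio of 0.565 (0.383 to 0.830), the one plexin whose interval lay below 1. That interval takes a length of 8596 bases, while the shortest Plxnb1 transcript of 585 bases would give fewer fragments. Plxna2 had a ratio of 1.65 (1.10 to 2.52). The intervals of Plxna3, Plxnd1 and Plxna4 held 1, with ratios of 1.4, 1.89 and 2.77, and Plxnb3 had 1 fragment, in the library labelled Eed-/-. Plxnd1, the receptor of Sema3e, was listed at 0.247 and 0.461 FPKM.

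**Figure D2:**
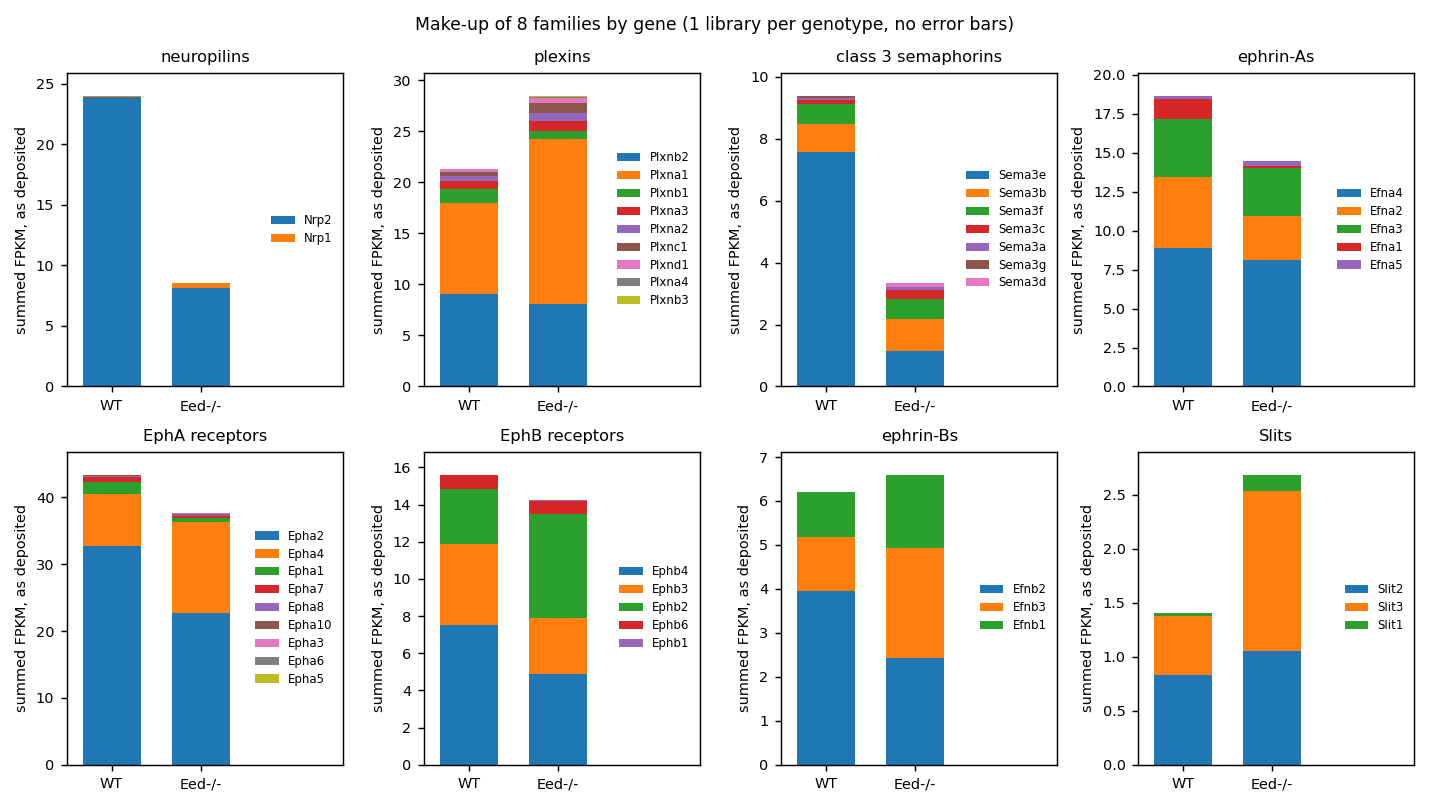
Summed FPKM as deposited of 8 families in the WT library and the library labelled Eed-/-, with each bar split by gene. The neuropilin bar goes from 23.9 to 8.53 FPKM and stays mostly Nrp2, the class 3 semaphorin bar loses most of its Sema3e segment, and the EphB and ephrin-B bars keep a similar height while their make-up differs.

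The ephrin-A ligands are held at the membrane by a lipid anchor and mainly bind EphA receptors. Efna4 supplied 47.6% of their sum in WT and 55.8% in its counterpart labelled Eed-/-, at 8.86 and 8.09 FPKM with a ratio of 1.02 (0.728 to 1.38). Efna2, at 4.6 and 2.86 FPKM, and Efna3, at 3.69 and 3.11 FPKM, were lower by less than their counting intervals resolve. Efna1 was past the threshold at the margin. It spans chr3:89075655-89085064 (mm9, minus strand) and was listed at 1.27 FPKM, about 13 fragments, in WT and at 0.122 FPKM, 1 fragment, in the library labelled Eed-/-. The change of -1.0 rests on this fragment number, the ratio of 0.0953 had an interval of 0.00202 to 0.571, and with median-ratio scaling in place of quantile normalization Efna1 fell short of the threshold. Efna5 was listed at 0.194 and 0.310 FPKM, with no fragment number because 2 annotated genes share its symbol.

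Among the ephrin-B ligands, which are transmembrane proteins, the leading gene differed between the libraries. Efnb2, known for marking arteries, was listed at 3.95 and 2.43 FPKM, a ratio of 0.663 (0.484 to 0.909), and went from 63.5% to 36.9% of the family sum. Efnb3 was listed at 1.23 and 2.50 FPKM, a ratio of 2.14 (1.29 to 3.51), and went from 19.8% to 37.9%. Efnb1 was listed at 1.03 and 1.66 FPKM with an interval of 0.973 to 3.05. The sum itself was close, at 6.21 and 6.6 FPKM, so opposite differences of its members lie behind a similar total.

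Eph receptors form the largest group of receptor tyrosine kinases. Epha2 had the highest level of all members in both libraries, at 32.7 and 22.6 FPKM, about 880 and 541 fragments. Its change was -0.33 and its ratio 0.788 (0.707 to 0.878). Epha4, which can bind ephrins of both classes, was higher in the library labelled Eed-/-, at 7.73 and 13.7 FPKM, about 342 and 540 fragments, a change of 0.90 and a ratio of 1.98 (1.73 to 2.28). Epha2 went from 75.4% to 60.1% of the EphA sum and Epha4 from 17.8% to 36.4%.

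Epha1 and Epha7 were both lower at low levels. Epha1 was listed at 1.83 and 0.601 FPKM with a ratio of 0.345 (0.166 to 0.672), but Zyx, a protein-coding gene, overlaps it on the opposite strand. Epha7 was listed at 0.805 and 0.278 FPKM with a ratio of 0.353 (0.173 to 0.711). Epha8, Epha10 and Epha3 had 5 or fewer fragments in each library, and Epha5 had 1 fragment, in the library labelled Eed-/-.

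The EphB receptors also differed among themselves. Ephb2 was listed at 2.97 and 5.61 FPKM, about 229 and 385 fragments, a change of 0.85 and a ratio of 2.09 (1.77 to 2.47). Ephb4, the receptor of ephrin-B2 in veins, was listed at 7.50 and 4.88 FPKM with a ratio of 0.726 (0.580 to 0.904), and Ephb3 at 4.36 and 3.01 FPKM with a ratio of 0.751 (0.568 to 0.984). Ephb2 therefore led the family in the library labelled Eed-/-, with 39.4% of its sum against 19.0% in WT, and Ephb4 led it in WT, with 48.1% against 34.3%. Ephb6, which lacks kinase activity, was listed at 0.774 and 0.693 FPKM, and Ephb1 had 1 fragment in all. Zan overlaps Ephb4 on the opposite strand.

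The Slits, large secreted repellents, were all low. Slit3 was listed at 0.546 and 1.48 FPKM, a ratio of 2.83 (1.64 to 5.01) and a change of 0.71, and went from 39.0% to 55.2% of the Slit sum. Slit2 was listed at 0.827 and 1.05 FPKM with an interval that held 1, and Slit1 had 1 and 5 fragments. Of their receptors, Robo1 was listed at 3.94 and 2.10 FPKM, a ratio of 0.570 (0.445 to 0.728). Robo4, known from the endothelium, was listed at 0.868 and 1.72 FPKM, a ratio of 2.10 (1.24 to 3.70). Robo1 went from 81.1% to 53.5% of the Robo sum and Robo4 from 17.9% to 43.9%. Robo3 had 1 and 3 fragments and Robo2 had 1, in WT.

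The netrins, laminin-related secreted proteins, were represented by Ntn1, which supplied 91.3% of their sum in WT and 92.0% in its counterpart labelled Eed-/-. Ntn1, on chromosome 11, was listed at 12 and 16.2 FPKM, about 490 and 590 fragments, a change of 0.56 and a ratio of 1.51 (1.34 to 1.71). Ntn3 and Ntn5 were listed under 0.7 FPKM in both libraries with intervals that held 1, and Ntn4 at 0 and 0.278 FPKM, with 6 fragments in the library labelled Eed-/-. Dcc, the attractive netrin receptor of neurons, was listed at 0 in both. Other netrin receptors were present: Unc5b was listed at 5.46 and 4.72 FPKM and Neo1 at 5.64 and 4.22 FPKM.

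**Figure D3:**
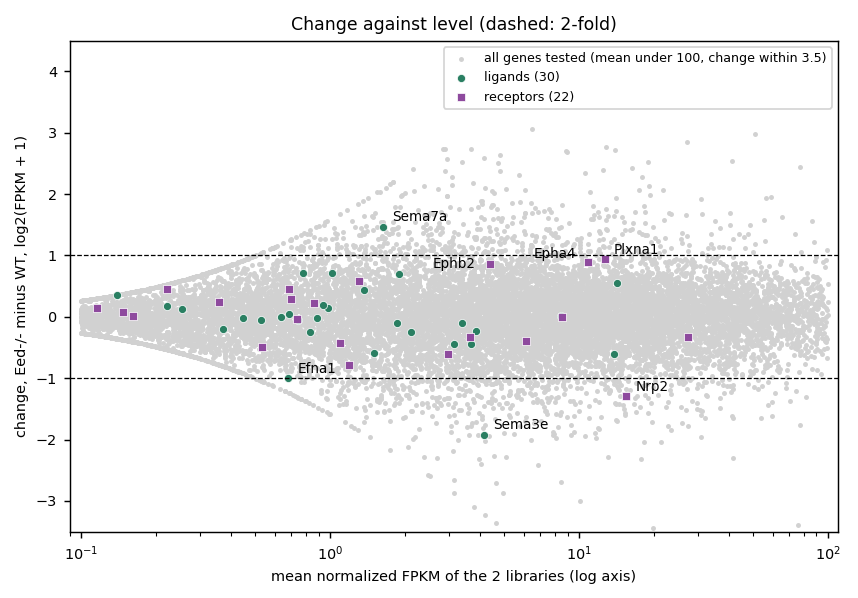
Change on the log2(FPKM + 1) scale against mean normalized FPKM on a log axis, with grey points for all genes compared whose mean was under 100 and whose change was within 3.5, green circles for the 30 ligands and purple squares for the 22 receptors compared. Sema7a lies above the upper dashed line of 2-fold, and Nrp2 and Sema3e lie below the lower one, with Efna1 on it.

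Counting error alone separated many more members than the threshold did. Of 50 members that had a fragment number and were above 0 in both libraries, the interval lay above 1 in 12, against 24.7% of all genes, and below 1 in 13, against 23% of all genes. It held 1 in the other 25. With the shortest in place of the longest transcript of each gene 11 lay above 1 and 7 below, against 17.6% and 16.5% of all genes. These shares too are near those of all genes. Read by role, the 30 ligands compared had a median change of -0.01 and the 22 receptors 0.05. Over all genes 50.9% were higher and 49% lower by any amount. Of the 10 secreted ligands compared 8 were higher and 2 lower, with a median of 0.16 (Sema3f was lower as deposited and Ntn5 higher under median-ratio scaling). Of the 20 membrane-bound ligands 6 were higher and 14 lower, with a median of -0.10 (Efna4 was lower as deposited and Sema4c higher under median-ratio scaling). These groups of ligands overlap in range, since Sema3e is secreted and Sema7a membrane-bound, and the difference between them was not tested.

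**Figure D4:**
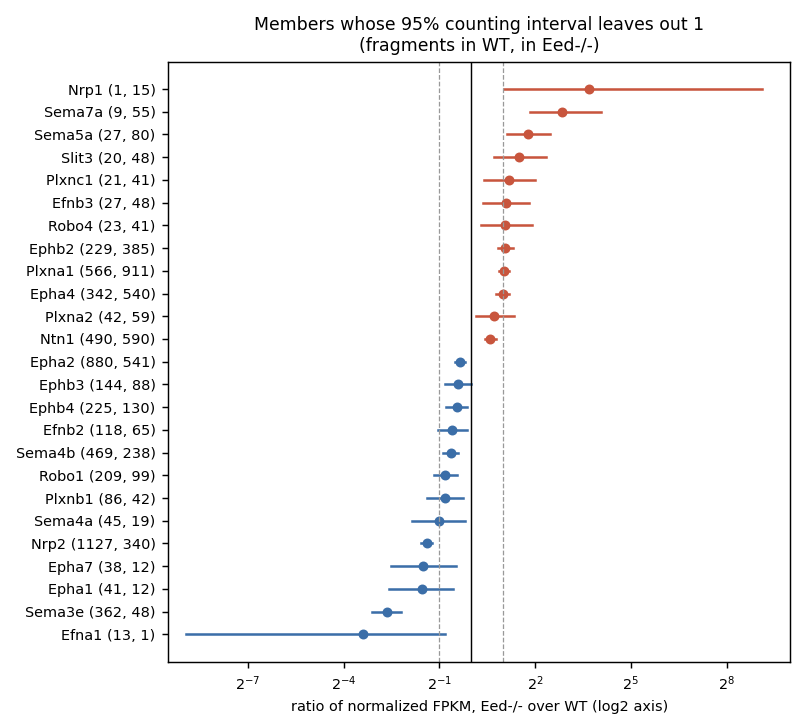
Ratio of normalized FPKM, library labelled Eed-/- over WT, on a log2 axis for the 25 members whose 95% counting interval leaves out 1, with points for the ratio, lines for the interval and both fragment numbers, WT first, after each gene name. Intervals are narrow for Epha2, Nrp2 and Plxna1, each with at least 340 fragments in both libraries, and wide for Nrp1 and Efna1, which have 1 fragment in one of them.

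Genes of 3 chromosomes differed as groups between the libraries. All genes compared on chromosome 1 had a median change of -0.29, on chromosome 8 of -0.38 and on X of 0.46. Nrp2 at -1.29, Epha4 at 0.90, Plxna2 at 0.29 and Sema4c at -0.01 lie on chromosome 1, with a median of 0.14, so Nrp2 has the direction of its chromosome and Epha4 and Plxna2 the opposite. Nrp1 at 0.45 and Efnb2 at -0.45 lie on chromosome 8, 1 in each direction. On X, Efnb1 and Plxna3 had a median of 0.33. Off these chromosomes 44 members were compared, of which 1 was past the threshold and higher and 2 lower, with a median of -0.01. Over all genes, on any chromosome, 3.8% were past it and higher and 3.98% lower. The part of the chromosome shifts in these values was not tested.

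The study gave a list of protein-coding genes at DMVs of mESCs, used here as gene names without the positions of the DMVs. In all 13 members stand on it: Efna3, Efna5, Epha2, Epha4, Epha7, Ephb4, Nrp2, Plxnb2, Sema3f, Sema4b, Sema6a, Sema6c and Slit2. All 13 were compared. Their median change was -0.20, with 4 higher and 9 lower, beside 50.9% and 49% of all genes (Sema3f was lower as deposited and Plxnb2 higher under median-ratio scaling), of which Nrp2 alone was past the threshold. The 39 other members compared had a median of 0.04, with 22 higher and 17 lower, of which Sema7a was past the threshold upward and Sema3e and Efna1 downward. In WT 8 of the 13 were expressed, and 11 of the 52 members off the list, beside 38.7% of all symbols. Levels differed too, with a median normalized FPKM in WT of 3.55 for members on the list and 0.546 for those off it. Members with a mean of at least 1 FPKM, on the list or off it, had a median change of -0.22. The difference between members on and off the list was not tested, nor was the part of level in it.

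RefSeq held promoter windows for 56 of the 65 members, 72 windows in all. Their median was 15 CpGs, against 6 over all 32851 windows, and it was 20 in the 16 windows of members on the DMV list and 13 in the 56 others. The windows of all 27025 genes were not matched to the members by gene type or level. Some members have several windows, so these values are no trait of axon guidance genes. Windows of members expressed in either library had a median of 13, and those of members under 2 FPKM in both had 16. The GC box GGGCGG, searched on both strands and itself holding a CpG, stood in 70.8% of the member windows and 32.7% of all windows. The TATA box letters TATAAA stood in 2.78% and 12.4%, and the E-box CACGTG, which reads alike on both strands, in 5.56% and 6.02%. A match here is a description of the letters and not of a binding site.

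Other genes of the pathway were read from a list of 80, of which 70 were compared. In the library labelled Eed-/- 3 of them were past the threshold and higher, 1 was past it and lower, 44 were higher by any amount and 26 lower, with a median of 0.08. The shares over all genes were 3.8% and 3.98% past the threshold and 50.9% and 49% by any amount, and with the FPKM as deposited 4 pathway genes rather than 1 were past it and lower. Dpysl4 and Dpysl3 encode collapsin response mediator proteins, cytoplasmic partners of semaphorin signalling. Dpysl4 was listed at 0.731 and 8.25 FPKM, a change of 2.50 and a ratio of 12.2 (7.40 to 20.8), and Dpysl3 at 4.66 and 26.3 FPKM, a change of 2.43 and a ratio of 6.37 (5.42 to 7.52). On the log2(FPKM + 1) scale both changes exceed that of any ligand or receptor described above. By ratio this does not hold, since Nrp1 at 13 is above both. Sema7a at 7.21 and Efna1, 10.5-fold higher in WT, exceed Dpysl3. Their relative Dpysl2 had the opposite direction, at 5.24 and 1.93 FPKM with a change of -0.99. Adam10, a membrane protease that cuts ephrins, was listed at 2.42 and 9.32 FPKM with a change of 1.69. Inpp5d, a lipid phosphatase encoded on chromosome 1, was listed at 11.2 and 3.88 FPKM with a change of -1.20.

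The labelled cell type was read from marker lists. All 8 pluripotency markers were expressed in both libraries, with Pou5f1 at 393 and 373 FPKM and Dppa5a at 250.4 and 372 FPKM, and Zfp42 was past the threshold upward with a change of 1.30. Their summed FPKM went from 1329 to 1550. Of these markers 6 were higher and 2 lower, beside 50.9% and 49% of all genes, with a median of 0.47. Klf4 had a change of 0.99 and Nanog of 0.86. Of 12 neural markers none of the 9 compared was past it, Tubb3 at 95.4 and 74.0 FPKM and Olig2 at 7.23 and 11.2 FPKM were highest, and Dcx and Neurog2 were at 0 in both. Summed FPKM went from 115 to 101 for the neural list, mostly Tubb3, a gene of chromosome 8, while 5 of the 9 compared were higher and 4 lower. The sum went from 57.8 to 41.8 for 10 fibroblast markers (mostly Fn1, 55.9 and 33.5, while Thy1 had a change of 2.10 and Dcn was at 0). By any amount 3 of the 5 fibroblast markers compared were higher and 2 lower. For 10 primitive endoderm markers the sum went from 45.2 to 81.9, mostly Lamb1 (29.6 and 24.8) and Lama1 (8.25 and 33.5). Changes were 2.06 for Lama1, 1.76 for Col4a1, and 0.73 for Gata4 and for Sox7. By any amount 8 of the 9 primitive endoderm markers compared were higher and 1, Lamb1, was lower. For 9 mesoderm markers the sum went from 27.6 to 92.0, led by Lefty2 at 25.2 and 86.5 FPKM. Lefty2, Kdr and Eomes were past the threshold upward, as 3.8% of all genes were. Of the 8 mesoderm markers compared, 6 were higher and 2, Mesp1 and Mixl1, were lower. For 8 trophoblast markers the sum went from 59.6 to 18.2. Tfap2c and Krt18 were past the threshold downward, as 3.98% of all genes were, and Elf5, Tpbpa and Prl3d1 were at 0. Among the 5 trophoblast markers compared, 1 was higher and 4 lower. For 6 endothelial markers the sum went from 38.6 to 17.9, and Pecam1 and Tek led. Pecam1 was past the threshold downward, Kdr upward, and Emcn was at 0. Among the 4 endothelial markers compared, 2 were higher and 2 lower. Some of these sums were thus higher in the library labelled Eed-/- and others lower, and several rest mostly on 1 gene. The trophoblast sum is mostly Tfap2c, 39.8 and 9.21 FPKM, and the endothelial sum mostly Pecam1, 35.1 and 13.1 FPKM. The part of other cell types in the members' values was not tested.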

How the data were processed

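RNA was ribosome-depleted total RNA in strand-specific (dUTP) libraries, 1 each for WT and Eed-/- mESCs. Per the labels and the study's methods the authors mapped reads to mm9 with TopHat (the processing notes name TopHat2 2.0.11) and deposited FPKM per gene from Cufflinks 2.2.1; the annotation and the strand setting are not given in the sources used here. From the deposited FPKM, repeated symbols were summed, libraries were quantile-normalized, and log2(FPKM + 1) was compared for genes with a mean of at least 0.1 (pandas 2.3.3 and numpy 2.4.6 under Python 3.11.15). Depth was recovered from 5053 genes with 1 transcript of at least 1000 bases in GENCODE vM1, where 78.4% of 947 low values in WT and 80.3% of 1050 in the library labelled Eed-/- lay within 0.1 of a whole fragment number (20% by chance), with transcript lengths shortened by 180 bases. Fragment numbers use the longest protein-coding transcript. Intervals are Clopper-Pearson intervals (scipy 1.17.1). The steps were tested on simulated data with 1 length per gene, so the use of 1 length for genes with several transcripts was not tested.

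The rule for members uses gene symbols and no measured value, but the rule and the lists were chosen with earlier results of these data known. The DMV list is the mESC column of the study's table of protein-coding DMV genes. Named genes were members past the 2-fold threshold, those with a mean of at least 10, the highest of each family and those crossing an FPKM of 2 with a 2-fold change, with pathway and marker genes by like rules; the other members were named to account for each family after their values were seen. Alternatives were other scaling, pseudocounts, filters, thresholds, chromosomes and transcript lengths.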

Additional observations from a re-analysis of the deposited data

How the results depend on the processing

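No paired analysis was possible because each genotype had 1 library, and no library could be left out. The direction of members was the same in 50 of 52 with the FPKM as deposited (not Efna4 and Sema3f) and in 48 of 52 with median-ratio scaling (not Ephb6, Ntn5, Plxnb2 and Sema4c), where the median of all genes was -0.09 and 0.02. As deposited, 4 other pathway genes were past the threshold and lower, with a list median of 0.0072. With median-ratio scaling 0 ephrins were past it. A pseudocount of 0.1 gave 9 members past it and higher and 5 lower, 8 and 4 other pathway genes, 2 semaphorins, 3 plexins or neuropilins, 1 ephrin, 1 Slit and 1 netrin higher, 1 Eph receptor higher and 2 lower, 2 DMV members lower, and medians of 0.67 for plexins and neuropilins and 0.57 for X. A pseudocount of 0.01 gave 11 and 6 members, 9 and 5 other pathway genes, 2 and 2 semaphorins, 4 plexins or neuropilins, 1 ephrin, 2 Slits or Robos and 1 netrin higher, 1 Eph receptor higher and 2 lower, 2 DMV members lower, and medians of 0.80 for plexins and neuropilins, 0.73 for Slits and Robos and 0.62 for X. Over all genes 11.4% were past the threshold and higher and 12% lower with a pseudocount of 0.1. With 0.01 these shares were 12.9% and 13.4%. A mean of at least 1 gave a member median of -0.22 and 0 ephrins past the threshold. At a 3-fold threshold 0 members were higher and 1 (Sema3e) lower, with 0 other pathway genes lower, 0 semaphorins higher, and 0 plexins or neuropilins, ephrins, DMV members and chromosome 1 members lower. Without chromosomes 1, 8 and X, where Nrp2 and Inpp5d drop out, 0 other pathway genes, 0 plexins or neuropilins and 0 DMV members were lower. At an expressed level of 1, 28 members were expressed in the library labelled Eed-/-, and at 0.5, 39 in WT, 39 in that library, 36 in both and 23 in neither. With the shortest transcripts as lengths 7 intervals lay below 1. At this depth genes with few fragments have wide intervals. The cause of other differences between settings was not tested.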
